A study of Mus musculus with 12 samples.

Results

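The step from week 2 to week 3 of lung colonization was examined in endothelial cells (ECs) sorted from mouse lungs. It set 3 arrays of lung ECs taken 3 weeks after MDA-MB-231-LM2 (MDA231-LM2) cancer cells had been given intravenously against 3 arrays taken 2 weeks after it, chosen by the time point in the sample labels, which makes 6 of the 12 arrays in the series. The other 6 arrays, 3 from week 1 and 3 from healthy lungs, are given beside the results as the earlier part of the time course. All mice were female NSG mice, 6 to 8 weeks of age at injection, and the healthy mice were age-matched and received no cancer cells. MDA231-LM2 is a human breast cancer line selected for growth in the lung. NSG mice lack mature T, B and NK cells and keep their myeloid cells, so the comparison holds for a lung without adaptive immunity. The cells were stained and sorted as positive for CD31 and negative for CD45, CD11b, EpCAM, CD140a, CD140b and the GFP of the cancer cells, and 500 pg of total RNA from each sample was amplified and hybridized to an Affymetrix mouse array. Each array measured ECs of whole lungs, so vessels near to and far from nodules were read together.

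Lung capillary ECs rarely divide in the healthy adult. An EC that enters the cell cycle first licenses its replication origins and raises nucleotide supply in S phase, then makes the kinases, motors and kinetochore proteins of mitosis, many of which are expressed only from late S phase to mitosis. Sprouting vessels add tip cells, which lead the sprout, and rebuild the basement membrane of laminins, type IV and related collagens and nidogens that ECs share with their neighbors.

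A value here is the log2 signal of a probe set, and a difference of 1 is a doubling. Arrays of week 3 correlated with each other at 0.978 to 0.982 and those of week 2 at 0.983, against 0.969 to 0.975 between the weeks. The signal of Gapdh control probe sets at the 3′ end minus that at the 5′ end, a sign of RNA quality, was 0.24 to 0.40 at week 3 and 0.30 to 0.41 at week 2. Pecam1, which encodes CD31, had log2 signals of 13.50, 13.50 and 13.46 at week 3 and 13.50, 13.43 and 13.47 at week 2. None of 22 pan-endothelial markers passed the test in either direction, and their median log2 fold change was -0.02. Of the genes of antigens that the sort excluded, Ptprc (CD45) had 9.15, 9.44 and 9.13 at week 3 and 8.50, 9.07 and 7.72 at week 2 (adjusted p = 0.264), Epcam had a log2 fold change of -0.27 (adjusted p = 0.318), and Pdgfra one of -0.65 (adjusted p = 0.320). Pdgfrb and Itgam had log2 fold changes of 0.21 and 0.32, and neither passed the test.

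Among 18193 genes, 246 were higher at week 3 than at week 2 (1.35% of genes tested) and 136 were lower (0.748%) at an adjusted p below 0.05 (limma, Benjamini–Hochberg over 45037 probe sets). At an unadjusted p below 0.05, 1566 genes were higher and 1517 lower. The median log2 fold change of all genes was -0.00. The rises were led by genes of mitosis and DNA synthesis, followed by basement membrane, tip cell and interferon-stimulated genes, and the falls by a transketolase-like gene, Tktl1, and by genes with no common list. Of the 246 genes called higher 134 lay in none of the lists, and of the 136 called lower 120. All 246 and all 136 had arrays that did not overlap between the weeks, a property that 12.9% of all genes had in the higher direction and 12.5% in the lower. The count depended on single arrays: by limma it was 0 when either replicate 1 or replicate 3 of week 2 was dropped (2576 and 2601 genes at an unadjusted p below 0.05), 56 without replicate 2 of that week, 47 without replicate 1 of week 3, 137 without its replicate 2 and 59 without its replicate 3. Since their arrays did not overlap between the weeks, none of the 382 genes could change direction in these fits. Where a gene called higher had further probe sets (145 genes with 245 of them), 228 of the 245 had the same sign, and of 148 further probe sets of the genes called lower, 132 did. In the same direction, 81 of the 245 and 32 of the 148 passed the test, so most did not pass. A further probe set passed for 63 of the 145 genes called higher and for 24 of 76 called lower. None of the further probe sets passed the test in the opposite direction.

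**Figure D1:**
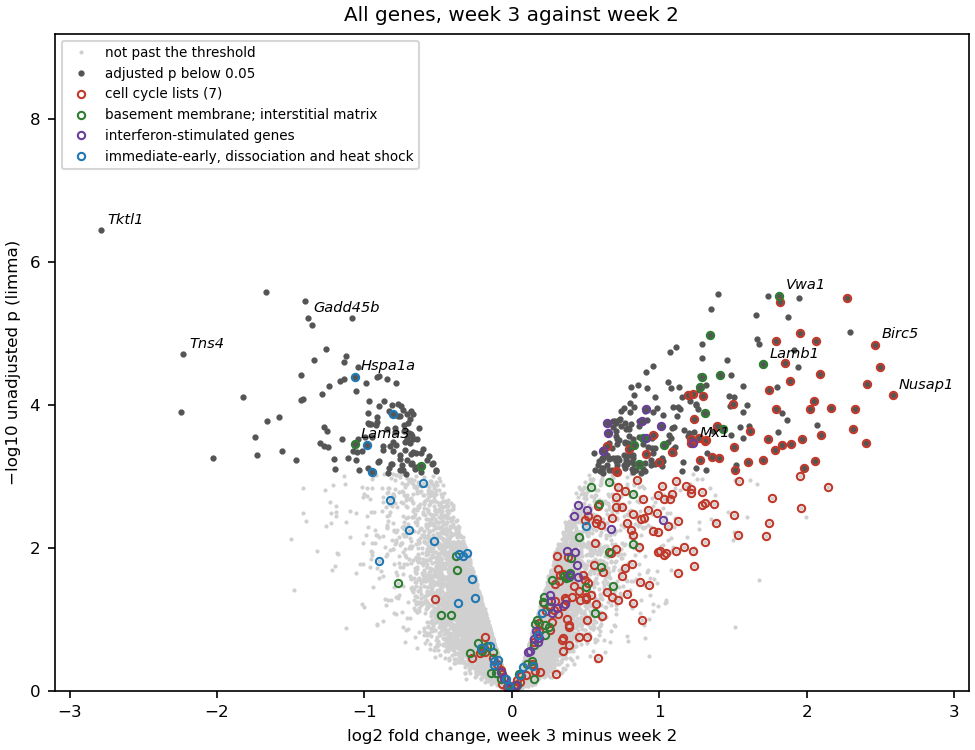
Each point is a gene, with its log2 fold change of week 3 minus week 2 on the x axis and −log10 of the unadjusted limma p on the y axis. Dark points passed an adjusted p of 0.05, and rings mark members of lists. The cell cycle rings lie to the right, up to 2.58 for Nusap1, and Tktl1 stands alone on the left at -2.79.

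Genes of mitosis rose most. In the list of kinetochore and spindle checkpoint genes, 7 of 36 measured members rose and none fell (median log2 fold change of 0.89). Among spindle motors and microtubule assembly factors 9 of 29 rose (median 1.11), among mitotic kinases, cyclins and genes of the anaphase-promoting complex (APC/C) 11 of 30 (median 1.08), and among the passenger complex, condensin, cohesin and cytokinesis genes 10 of 25 (median 1.27). None of their members fell. At an unadjusted p below 0.05, 23 of the 25 genes of the last list and 26 of the 36 kinetochore genes were higher.

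Nusap1, which bundles spindle microtubules, had the largest rise, with 10.24, 9.79 and 10.83 at week 3 against 7.90, 7.20 and 8.01 at week 2 (a log2 fold change of 2.58 with a standard error, SE, of 0.31 and n = 3 in each week, as throughout, adjusted p = 0.0206). Cenpf, a kinetochore protein that accumulates in G2, had 10.03, 9.72 and 10.77 at week 3 and 7.68, 7.52 and 7.82 at week 2 (log2 fold change 2.50, SE 0.26). The lowest week 3 array of each gene lay more than 1 log2 unit above the highest week 2 array. Birc5, the survivin subunit of the chromosomal passenger complex, had 10.01, 9.59 and 10.48 at week 3 and 7.67, 7.33 and 7.70 at week 2 (2.46, SE 0.23). The kinase of the same complex, Aurkb, had 9.56, 9.36 and 10.33 at week 3 and 7.04, 7.65 and 7.35 at week 2 (2.41, SE 0.27). Replicate 3 of week 3 was the highest array for all 4 of these genes.

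Ccna2, the cyclin of S phase and G2, had 11.30, 11.11 and 11.75 at week 3 against 9.06, 9.18 and 9.12 at week 2 (2.27, SE 0.17), and its partner kinase Cdk1 had 10.51, 10.39 and 11.32 at week 3 and 8.92, 8.25 and 8.54 at week 2 (2.17, SE 0.28). Top2a, the topoisomerase that untangles chromosomes, had 10.23, 10.06 and 11.23 at week 3 and 8.02, 8.36 and 8.17 at week 2 (2.33, SE 0.30). Mki67, the gene of the Ki-67 proliferation antigen, rose by 2.05 on the log2 scale (SE 0.25). Nuf2 and Cenpi at the kinetochore, Spag5, Tpx2 and Prc1 on the spindle and Cdca8 and Anln in the passenger complex and cytokinesis had log2 fold changes of 1.97 to 2.40.

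The same genes had low signals before week 3. In healthy lungs, Nusap1 had 8.55, 8.11 and 7.56, at week 1 it had 8.14, 9.22 and 8.47, and its week 2 arrays overlapped the healthy ones. The 55 genes called higher in 7 cell cycle lists had a median signal of 8.22 in healthy lungs, 8.52 at week 1, 8.09 at week 2 and 9.89 at week 3. At week 1, in arrays that the call did not use, 48 of the 55 had a mean above that of healthy lungs, with a median difference of 0.21, against 11070 of the 18193 genes and a median of 0.05. None of the 55 passed the test there. The step from week 2 to week 3 exceeded the step from week 1 to week 2 by 3.32 log2 units for Cenpf (adjusted p = 0.0252), by 3.17 for Birc5 (0.0405) and by 2.54 for Spag5 (0.0252). For Nusap1 the same difference was 3.49 and did not pass (adjusted p = 0.0596).

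**Figure D2:**
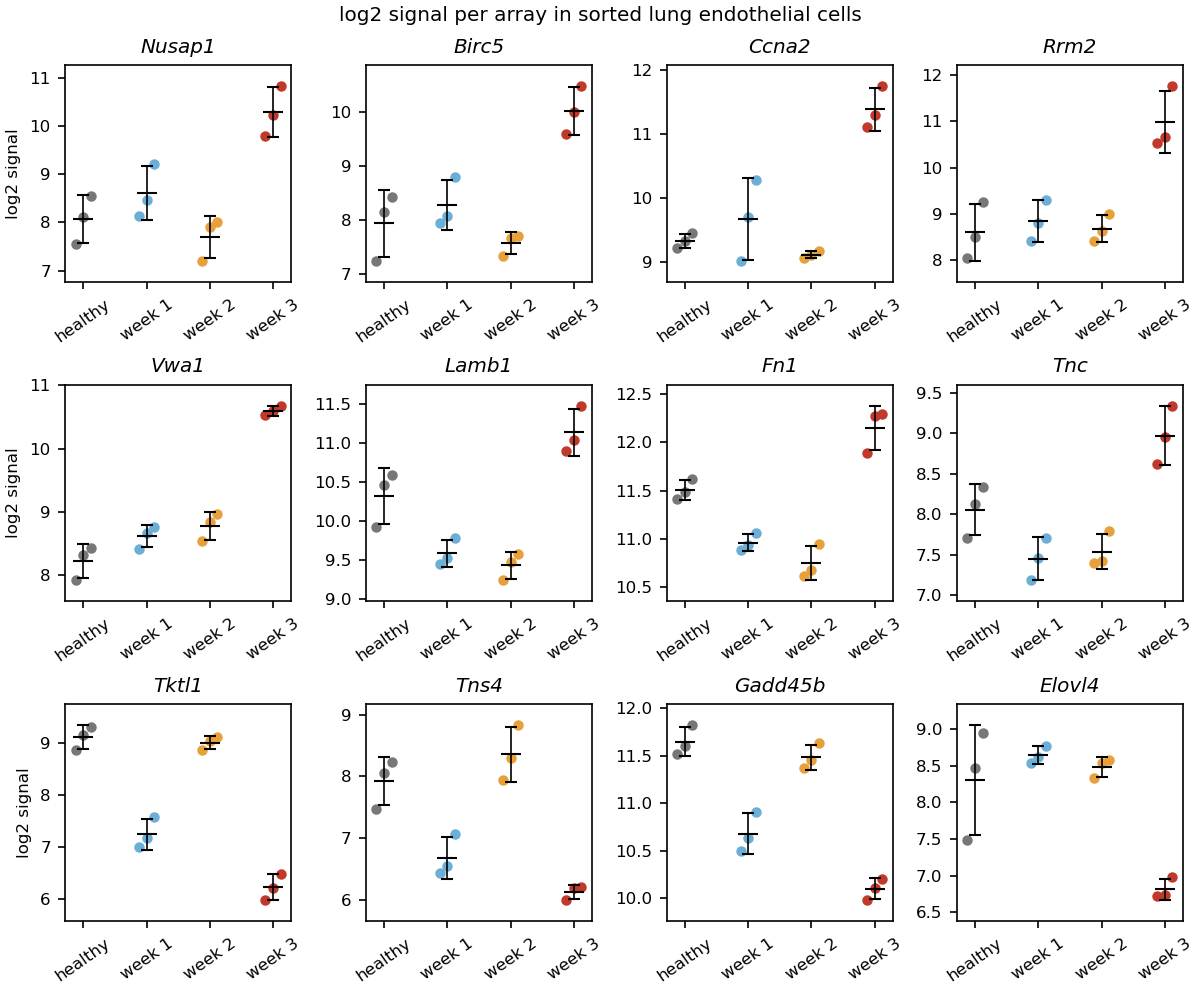
Each point is the log2 signal of 1 array (y axis) by group (x axis), drawn from low to high within a group, with the mean and SD of 3 arrays. In the upper row week 3 is highest, the middle row holds matrix genes that lay at or below their healthy signal at week 2 except for Vwa1, and Tktl1, Tns4 and Gadd45b in the lower row are low at weeks 1 and 3.

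DNA replication genes rose with them, in lists with lower medians. In the replication licensing and origin firing list 8 of 27 rose (median 0.79), in the replication fork and nucleotide supply list 7 of 34 (median 0.52), and in homologous recombination and replication stress 3 of 25 (median 0.59). No member of these 3 lists fell. Rrm2, the ribonucleotide reductase subunit that limits deoxynucleotide supply, had 10.54, 10.67 and 11.76 at week 3 against 8.63, 8.42 and 8.99 at week 2 (2.31, SE 0.33, adjusted p = 0.0276). Cdt1, which loads the MCM helicase, had 10.60, 10.53 and 11.34 at week 3 and 8.92, 8.92 and 9.26 at week 2 (1.79, SE 0.23), and its inhibitor Gmnn rose by 1.74 (SE 0.26). The helicase subunit Mcm5 rose by 1.51 (SE 0.24). Uhrf1, which carries DNA methylation through replication, had 10.21, 10.59 and 10.60 at week 3 and 8.57, 8.78 and 8.57 at week 2 (1.82, SE 0.14, adjusted p = 0.0107), and Pclaf, Asf1b, Dtl, Brca1 and Exo1 had log2 fold changes of 1.22 to 1.99. Pcna, the sliding clamp, was already at 12.30, 12.25 and 12.32 at week 2 and had 12.27, 12.51 and 12.55 at week 3 (0.15, adjusted p = 0.546; named after its values were seen).

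Few regulators above the cell cycle were called. Of 26 genes of the E2F, RB and DREAM list 2 rose, E2f7, a repressor of the family, by 1.25 (SE 0.22) and Ccne1, the G1/S cyclin, by 1.12 (SE 0.15). Of 19 histone and chromatin genes Hells and Hmgb2 rose, by 1.32 and 1.16. Myc was the only gene called among 30 of MYC and ribosome biogenesis, with 9.13, 9.53 and 9.36 at week 3 against 8.31, 8.58 and 8.47 at week 2 (0.89, SE 0.14). At an unadjusted p below 0.05, 10 of these 30 were higher and 1 lower (median 0.21). At that level 10 of the 26 E2F, RB and DREAM genes were higher and none lower (median 0.26), and 7 of the 19 histone and chromatin genes were higher and 1 lower. Of 22 CDK inhibitors and p53 targets none rose and Gadd45b fell by 1.39 on the log2 scale (SE 0.11, adjusted p = 0.0114), while the median of that list was -0.19.

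Short motifs were counted in the promoters of these genes, as a description of the reference sequence. The cell cycle homology region, CHR, searched as TTTGAA on both strands, is the site through which the DREAM complex holds mitotic genes silent and B-MYB–MuvB and FOXM1 later act, and it often lies downstream of CCAAT boxes bound by NF-Y. In RefSeq windows from 250 bases before to 50 after the start (GRCm38.p6), TTTGAA was found for 22 of the 41 cell cycle risers with a window (53.7%), against 15.7% of the 14452 tested genes with one and 17.9% of all 32851 windows. CCAAT was found for 31 of the 41 (75.6%), against 42.0% of tested genes and 37.4% of all windows. Of cell cycle genes that were not called, 49 of 128 held TTTGAA (38.3%), of the other risers 21 of 142 (14.8%) and of the genes called lower 17 of 104 (16.3%). The 4 stretches that follow are shown because they belong to the cell cycle genes with the largest rises whose single window holds both motifs within 100 bases of the start. Each runs from 100 bases before the start to 49 after it on the strand of the gene, with capitals for TTTGAA and its reverse complement TTCAAA, and for CCAAT and its reverse complement ATTGG. In Cdca8, 1 TTTGAA and 1 ATTGG share 1 base. They lie at chr1:189688037-189688186 for Cenpf, chr11:99024140-99024289 for Top2a, chr10:69352863-69353012 for Cdk1 and chr4:124936868-124937017 for Cdca8, all on the minus strand.
Cenpf: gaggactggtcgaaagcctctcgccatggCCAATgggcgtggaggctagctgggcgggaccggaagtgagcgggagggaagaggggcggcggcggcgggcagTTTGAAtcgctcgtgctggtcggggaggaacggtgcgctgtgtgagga
Top2a: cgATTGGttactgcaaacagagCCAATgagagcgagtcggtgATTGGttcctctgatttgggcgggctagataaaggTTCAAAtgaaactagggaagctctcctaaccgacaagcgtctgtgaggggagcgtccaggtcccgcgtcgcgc
Cdk1: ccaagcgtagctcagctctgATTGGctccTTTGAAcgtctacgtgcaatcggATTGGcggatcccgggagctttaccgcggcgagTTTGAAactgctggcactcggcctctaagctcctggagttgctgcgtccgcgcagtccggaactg
Cdca8: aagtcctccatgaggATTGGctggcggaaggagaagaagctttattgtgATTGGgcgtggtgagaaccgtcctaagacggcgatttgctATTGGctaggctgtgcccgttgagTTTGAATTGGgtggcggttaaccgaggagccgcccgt

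Cdk1 holds TTTGAA at 2 places and Top2a has it on the opposite strand. A match in these windows was not tested for binding.

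Part of the basement membrane list rose as a second group. Of 30 measured, 7 rose and 1 fell, with a median of 0.15. At an unadjusted p below 0.05, 11 were higher and 4 lower, and 11 of the 30 had a lower mean at week 3. Vwa1, which encodes WARP, a protein of the vascular basement membrane, had 10.53, 10.59 and 10.68 at week 3 against 8.97, 8.85 and 8.54 at week 2 (1.82, SE 0.13, adjusted p = 0.0107). The laminin β1 gene Lamb1 had 11.48, 11.04 and 10.90 at week 3 and 9.48, 9.58 and 9.24 at week 2 (1.71, SE 0.18). In both genes the groups were more than 1 log2 unit apart. Col15a1 and Col18a1, the collagens of the multiplexin family, rose by 1.34 (SE 0.12) and 1.31 (SE 0.17). Lama4, the α chain of the main endothelial laminin, had 10.90, 10.87 and 11.06 at week 3 and 9.62, 9.94 and 9.44 at week 2, and Nid2 and Lama1 rose by 0.86 and 0.83. The member that fell was Lama3, the α chain of epithelial laminin, with 7.91, 8.35 and 8.34 at week 3 and 9.46, 9.28 and 9.06 at week 2 (log2 fold change of -1.06).

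Part of the matrix had means below its healthy signal at weeks 1 and 2. Lamb1 averaged 10.32 in healthy lungs, 9.59 at week 1, 9.43 at week 2 and 11.14 at week 3, and its week 3 mean differed from the healthy one by 0.82 (adjusted p = 0.0926). Its lower means at weeks 1 and 2 did not pass the test against healthy lungs either (limma, adjusted p = 0.260 and 0.175). In contrast, Vwa1 averaged 8.22 in healthy lungs, 8.61 at week 1, 8.79 at week 2 and 10.60 at week 3, and Col15a1 was 1.92 higher at week 3 than in healthy lungs (adjusted p = 0.00135). In the interstitial matrix and matricellular list 5 of 30 rose and 1 fell, with a median of 0.43, while the list's median against healthy lungs was -0.42 at week 1, -0.54 at week 2 and -0.04 at week 3. Fn1, the fibronectin gene, had 12.27, 11.89 and 12.30 at week 3 against 10.61, 10.95 and 10.68 at week 2 (1.41, SE 0.15), where healthy lungs had 11.62, 11.49 and 11.41. By limma, Fn1 did not pass against healthy lungs at week 1 or week 2 (adjusted p = 0.168 and 0.0991). Col1a1 passed at week 2 (-1.11, adjusted p = 0.0389). Tnc, which encodes tenascin C, had 9.34, 8.62 and 8.95 at week 3 and 7.42, 7.79 and 7.40 at week 2 (1.43, SE 0.21), and healthy lungs had 8.33, 8.13 and 7.71. Col1a1 rose by 1.29 and Vcan by 1.03, and Col12a1, a collagen that associates with fibrils, was the one that fell. Among 29 genes of collagen folding, crosslinking and proteolysis, the metalloproteases Adam12, Adam19 and Mmp14 rose, by 1.10, 0.96 and 0.91.

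Fibroblast markers were set beside the interstitial genes. Of 16 measured, 3 rose (Fn1, Mfap5 and Col1a1), of which Fn1 and Col1a1 are also counted in the interstitial list, and 6 had a lower mean at week 3, of which 2 were lower at an unadjusted p below 0.05. The summed signal of the 16, as log2, was 15.25 to 15.41 at week 3 and 14.81 to 15.14 at week 2. In healthy lungs it was 15.81 to 15.88, above both. Pdgfra, which defines these cells, had 9.92, 9.95 and 9.12 at week 3 and 10.36, 10.72 and 9.87 at week 2, and thus a lower mean at week 3. Of 16 mural cell markers, Acta2 rose by 1.08 (SE 0.13), and the summed signal of that list overlapped between the weeks. The part of fibroblast and mural transcripts in the matrix values was not tested. In sorted bulk RNA, fewer cells of a type and less RNA per cell cannot be told apart.

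Of 31 tip cell and sprouting genes 11 rose and none fell (median 0.40). Trp53i11 had 11.58, 11.28 and 11.52 at week 3 against 9.59, 9.89 and 9.68 at week 2 (1.74, SE 0.13, adjusted p = 0.0107), and it averaged 9.07 in healthy lungs and 9.31 at week 1. Rgcc, a regulator of the cell cycle that complement induces, had 10.95, 10.28 and 10.73 at week 3 and 9.18, 9.13 and 8.94 at week 2 (1.57, SE 0.18). Nrp2, a coreceptor for VEGF-C and semaphorins, rose by 0.92, and the guidance receptor Unc5b by 0.73. Apln, the apelin ligand that marks tip cells, had 11.59, 11.92 and 11.94 at week 3 and at most 11.19 at week 2 (0.71, SE 0.13), and Esm1, which VEGF induces, rose by 0.78. Angpt2, the ligand that loosens vessels for sprouting, rose by 0.61 (adjusted p = 0.0451) and was the only gene called among 31 of VEGF, angiopoietin and Notch signaling, of which 10 were lower and 2 higher at an unadjusted p below 0.05. Vegfa had 12.42, 12.64 and 12.31 at week 3 and 12.81, 12.63 and 12.78 at week 2 (-0.29, adjusted p = 0.291), with overlapping arrays.

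Markers of EC subtypes were set beside this. Of 17 venous markers, 4 rose (Vwa1, Col15a1 and Nrp2, which the matrix and tip cell lists also hold, and Bst1), and the summed venous signal was 15.77 to 15.84 at week 3 and 15.54 to 15.67 at week 2. Vwf, the venous and large vessel marker, had 13.16, 13.04 and 12.97 at week 3 and 13.09, 13.06 and 13.01 at week 2 (0.00, SE 0.10). The aerocyte markers, of alveolar capillary cells that exchange gas, had a summed signal of 15.95 to 16.06 at week 3 and 16.11 to 16.13 at week 2, with 10 of 11 members at a lower mean, and Apln, the one that was higher, was the only member called. Of 12 general capillary markers Sox11 and Hilpda fell, by 0.95 and 0.65 on the log2 scale, and their sum overlapped. In the lymphatic list only Nts rose (1.27), and in the arterial list only Unc5b.

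**Figure D3:**
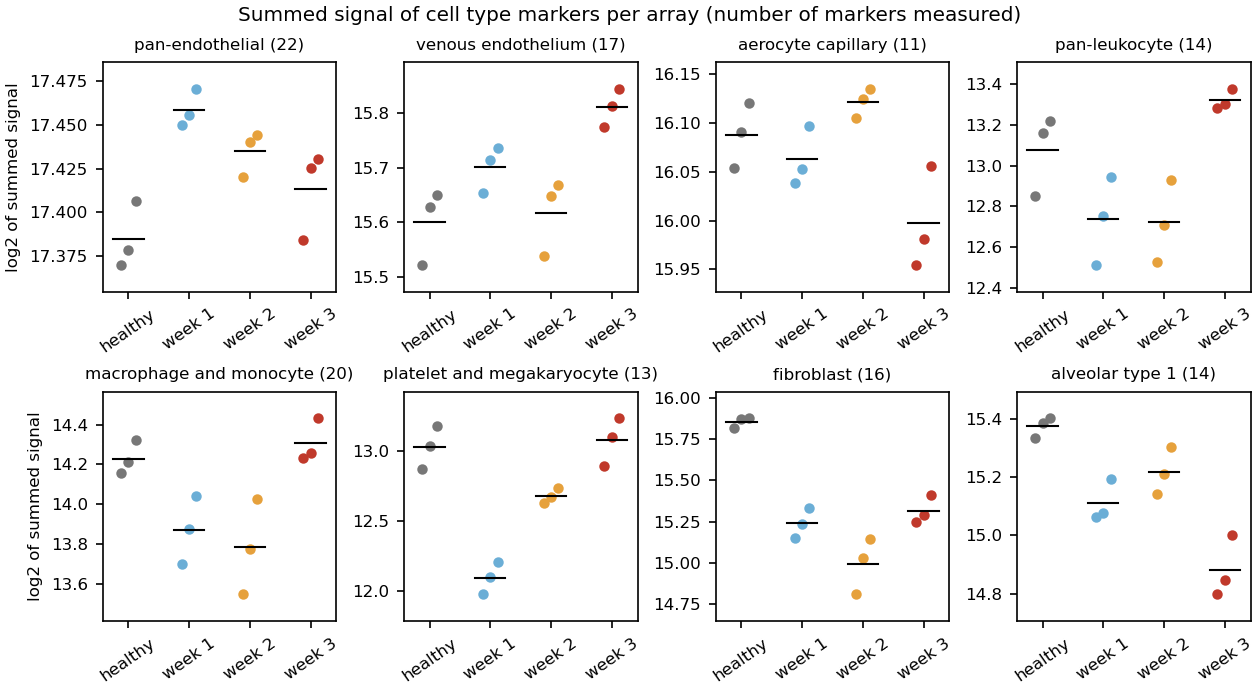
Each point is the log2 of the summed signal of a marker list in 1 array (y axis) by group (x axis), drawn from low to high, with the mean as a bar. Leukocyte, macrophage, platelet, fibroblast and venous sums are higher at week 3 than at week 2 and the alveolar type 1 and aerocyte sums lower, while the pan-endothelial sums span 17.38 to 17.43 at week 3 and 17.42 to 17.44 at week 2.

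Interferon-stimulated genes rose as well. Their list had a median of 0.68 against healthy lungs at week 1 and at week 2, and of 1.08 at week 3. Of 33 measured, 8 rose against week 2 and none fell (median 0.40), and 19 were higher at an unadjusted p below 0.05. Mx1, which encodes an antiviral GTPase, averaged 7.24 in healthy lungs, 8.46 at week 1, 8.65 at week 2 and 9.88 at week 3, with 9.96, 9.99 and 9.70 at week 3 against 8.48, 8.42 and 9.06 at week 2 (1.23, SE 0.19, adjusted p = 0.0327). Zbp1, a sensor of Z-form nucleic acids, had 10.50, 10.22 and 10.43 at week 3 and 9.43, 9.60 and 9.39 at week 2 (0.91, SE 0.12). Ifi204 rose by 1.01 and Ifit2 by 0.91, and Ifi27l2a, Irf7, Rsad2 and Oas1a by 0.62 to 0.88. Cxcl10, the chemokine, had 10.84, 10.90 and 10.97 at week 3 and 10.39, 10.03 and 10.17 at week 2 (0.71, SE 0.12) and averaged 8.13 in healthy lungs and 8.84 at week 1. None of these genes passed the test that its step from week 2 to week 3 differed from the one before. Irf1, a transcription factor of the same pathway, fell instead, with 12.22, 12.36 and 12.15 at week 3 and 12.99, 13.02 and 12.85 at week 2 (-0.71, SE 0.11).

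The interferon-stimulated response element, searched as GAAANNGAAA on both strands, was found for 12 of the 22 measured interferon-stimulated genes with a window (54.5%). It was found for 3.63% of tested genes with a window and in 3.44% of all windows. Here, as above, a gene was counted when any of its windows held a match, while the share of all windows counts single windows. The element was found for none of the 104 genes called lower with a window, and for 2 of the 4 called interferon-stimulated genes with one. Part of the window of Oas1a, which encodes an oligoadenylate synthetase, is shown. Oas1a was the only called interferon-stimulated gene whose single window holds a match within the stretch printed. The 2 overlapping matches, in capitals, lie just upstream of the start. The stretch lies at chr5:120907476-120907625 on the minus strand and runs from 100 bases before the start to 49 after it.
Oas1a: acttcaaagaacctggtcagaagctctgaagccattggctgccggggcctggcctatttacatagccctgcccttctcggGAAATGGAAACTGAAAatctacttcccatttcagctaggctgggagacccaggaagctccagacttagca

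Other inflammatory lists gave few calls. At an unadjusted p below 0.05, 7 of 20 complement and acute phase genes were higher and none lower (median 0.28). Of 31 genes of the interferon gamma response and antigen presentation 8 were higher and 1 lower (median 0.15), and only Cxcl10 and Irf1 were called. Of the NF-κB and inflammatory mediators 4 were higher and 5 lower at that level. Of 35 NF-κB and inflammatory mediators Tnfrsf11b and Ccl5 rose and Nfkbiz fell. Tnfrsf11b, which encodes osteoprotegerin, a decoy receptor for RANKL and TRAIL, had 11.55, 11.51 and 10.91 at week 3 against 10.15, 10.25 and 10.25 at week 2 (1.10, SE 0.18, adjusted p = 0.0377). Of the other factors followed here, Scgb3a1, a small secretoglobin that the airway list also holds, had 11.70, 11.02 and 11.25 at week 3 and 9.65, 9.99 and 9.55 at week 2 (1.59, SE 0.20). The activin and inhibin βB gene Inhbb had 11.94, 12.07 and 11.79 at week 3 and 11.12, 11.78 and 11.46 at week 2 (0.48, SE 0.18, adjusted p = 0.243), so most of its difference from healthy lungs, 1.68 at week 2 and 2.16 at week 3, was there at week 2. The related Inhba had 8.57, 9.33 and 9.23 at week 3 and 7.24, 6.85 and 7.63 at week 2 (1.81, SE 0.26). Of 20 complement and acute phase genes Cfb rose by 1.14, and of 36 genes of junctions and adhesion Itgb3 and Gja1 rose, by 0.98 and 0.95.

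Leukocyte transcripts were higher at week 3. Of 14 pan-leukocyte markers 3 rose, 11 were higher at an unadjusted p below 0.05, and the median was 0.81. Fcer1g, the signaling chain of Fc receptors, had 9.24, 9.21 and 9.22 at week 3 against 8.36, 8.38 and 8.20 at week 2 (0.91, SE 0.10), and Lcp2 and Rac2 rose by 0.97 and 0.81. The summed signal of the list was 13.28 to 13.38 at week 3 and 12.53 to 12.93 at week 2, where healthy lungs had 12.85 to 13.22. None of 20 macrophage and monocyte markers passed the test, and 7 were higher at an unadjusted p below 0.05. The sums were 14.23 to 14.43 at week 3 and 13.55 to 14.03 at week 2. Healthy lungs had sums of 14.16 to 14.32, which overlapped those of week 3. Mrc1 of that list, the mannose receptor, had 10.65, 10.21 and 10.07 at week 3 and 8.81, 9.49 and 8.95 at week 2 (1.23, adjusted p = 0.0502). None of 12 neutrophil or 11 lymphocyte markers passed, and Cd3e stayed between 6.41 and 6.59 on all 6 arrays. The mast cell receptor chain Ms4a2 rose by 1.83 (SE 0.24), while the summed mast cell signal overlapped. Another Ms4a2 probe set, with a mean signal of 6.26 against 6.83, had a log2 fold change of 0.23 (limma, adjusted p = 0.440).

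Some genes outside the lists belong beside these markers, and they were chosen after their values were seen. Csf2rb and Csf2rb2, receptor chains for GM-CSF, IL-3 and IL-5, rose by 1.95 (SE 0.15) and 1.48, and Csf2rb had 10.18, 9.89 and 9.94 at week 3 against 7.81, 8.16 and 8.19 at week 2. Ccl6 had 10.60, 10.15 and 9.65 at week 3 and 8.58, 8.54 and 8.47 at week 2, and 10.39, 10.44 and 9.44 in healthy lungs, so its week 3 arrays overlapped the healthy ones. C3ar1, the receptor for C3a, rose by 1.57, Clec4n by 1.20 and Ccl3 by 1.16. The healthy arrays of Csf2rb, at 8.46, 8.14 and 7.99, lay below all 3 week 3 arrays. Tgfbi, a matrix protein that TGF-β induces, rose by 1.94 (SE 0.20). The part of leukocyte transcripts in the rises, the cell cycle genes included, was not tested. The summed platelet signal was also higher, 12.90 to 13.23 at week 3 and 12.63 to 12.74 at week 2, and Itgb3 belongs to that list too. In healthy lungs the platelet sums were 12.87 to 13.18, which overlapped those of week 3.

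**Figure D4:**
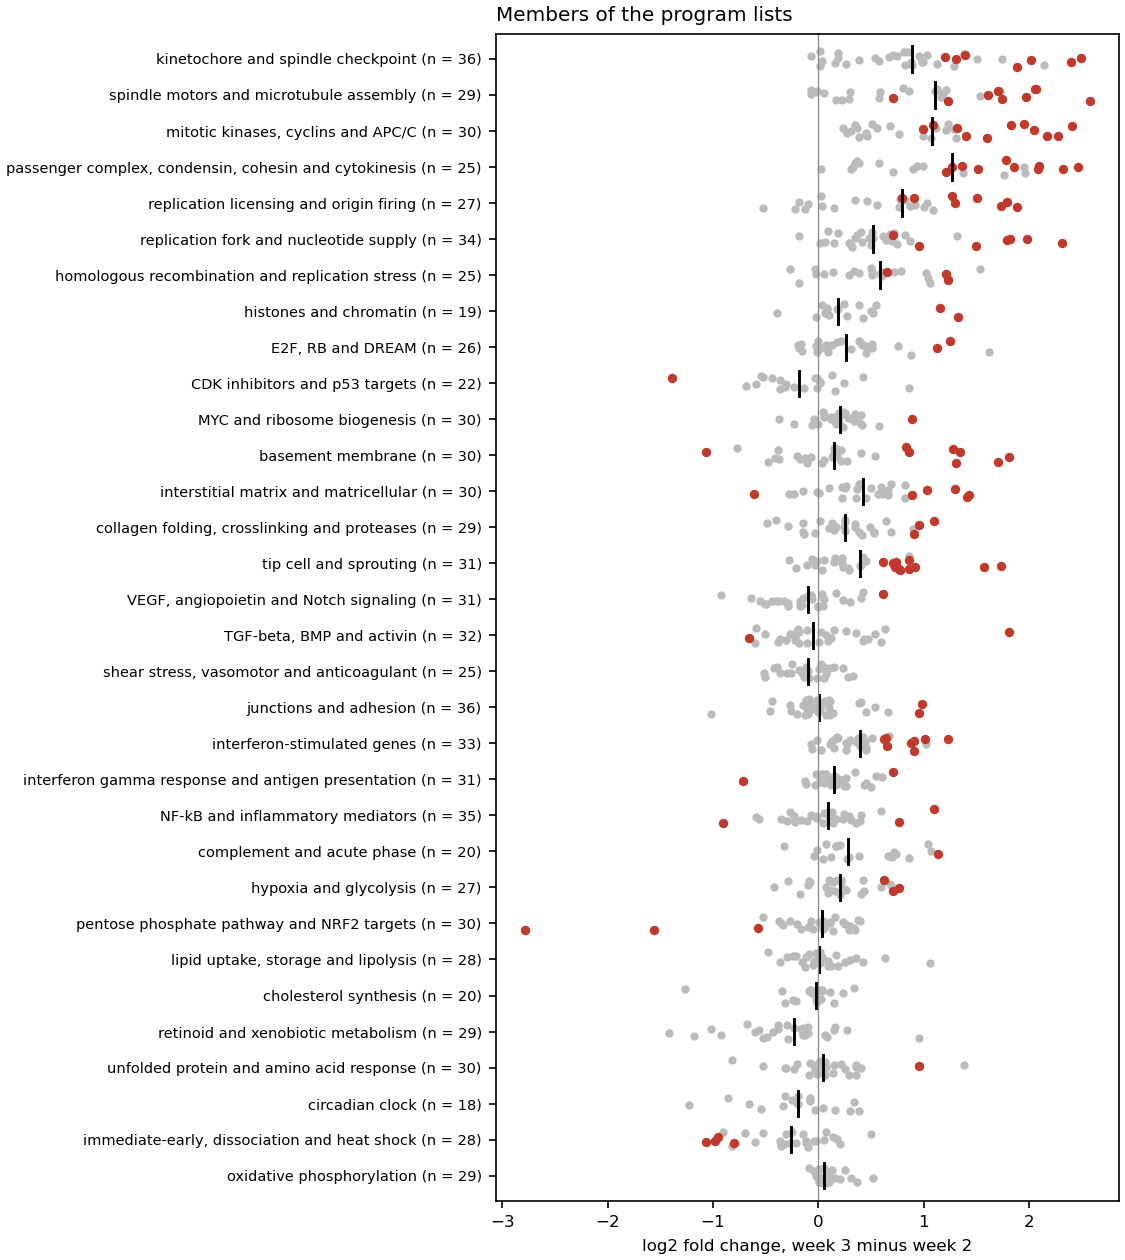
Each point is a gene of a program list, with its log2 fold change of week 3 minus week 2 on the x axis, red where it passed an adjusted p of 0.05, and the bar is the median of the list. The 7 lists of mitosis and replication at the top have medians of 0.52 to 1.27, and the immediate-early, retinoid, circadian and CDK inhibitor lists have medians of -0.26 to -0.19.

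Among the falls, Tktl1 stood apart. It encodes a transketolase-like protein related to the enzyme of the pentose phosphate pathway and had 6.48, 5.98 and 6.21 at week 3 against 9.04, 9.12 and 8.87 at week 2 (-2.79, SE 0.15, adjusted p = 0.0107). It had 9.16, 8.86 and 9.32 in healthy lungs and 6.99, 7.57 and 7.17 at week 1, so the signal was high in healthy lungs and at week 2 and low at weeks 1 and 3. The difference between week 1 and healthy lungs passed the test as well (-1.87, adjusted p = 0.0394). The step from week 2 to week 3 minus the step from week 1 to week 2 was -4.56 (adjusted p = 0.00375). Among glutathione transferases of the same list, Gsta3 fell by 1.56 and Gstm1 fell by 0.57 on the log2 scale, and the median of the 30 genes of the pentose phosphate pathway and NRF2 targets was 0.03.

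Other large falls followed the same course. Trim72, a protein of membrane repair in muscle, had 7.76, 8.87 and 8.87 at week 3 against 10.76, 10.71 and 10.75 at week 2 (-2.25, SE 0.29), and averaged 10.59 in healthy lungs and 9.07 at week 1. Tns4, a tensin of focal adhesions, had 6.00, 6.21 and 6.19 at week 3 and 8.83, 7.95 and 8.30 at week 2 (-2.23, SE 0.22), and 6.43, 7.06 and 6.55 at week 1. Another Tns4 probe set of similar mean signal (7.25 against 7.27) did not share this fall (-0.15, limma, adjusted p = 0.588). Gadd45b, a stress-induced regulator of growth arrest, had 10.20, 10.11 and 9.98 at week 3 and 11.45, 11.63 and 11.37 at week 2, and averaged 11.65 in healthy lungs and 10.68 at week 1. Gnat1, Rskr, Snhg7, Icam5, Muc13 and the opposite-strand transcript Atcayos, with log2 fold changes of -2.03 to -1.42, passed the test of the difference between the steps, with values of -3.82 to -2.77. Across all genes 33 passed it with a negative value (0.181%) and 20 with a positive one (0.110%). The first set held Tktl1, Trim72 and Tns4, and the second Cenpf, Birc5, Spag5, Fn1, Mfap5, Col15a1, Vwa1 and Nrp2. Both comparisons use the same week 2 and week 3 arrays.

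Week 1 and healthy lungs share no array with the step from week 2 to week 3, and they were compared over all 136 genes called lower. Of these, 113 (83.1%) had a lower mean at week 1 than in healthy lungs, with a median difference of -0.33, against 39.2% of all genes and a median of 0.05. A difference of more than 0.5 log2 units in that direction was seen for 48 of them (35.3%) and for 4.21% of all genes. The median signal of the 136 genes was 9.88 in healthy lungs, 9.52 at week 1, 9.76 at week 2 and 8.83 at week 3. Of the 246 genes called higher, 92 (37.4%) had a lower mean at week 1. At week 1 only Tktl1 of the genes called lower, and Adm, Ifi27l2a and Oas1a of those called higher, passed the test against healthy lungs.

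**Figure D5:**
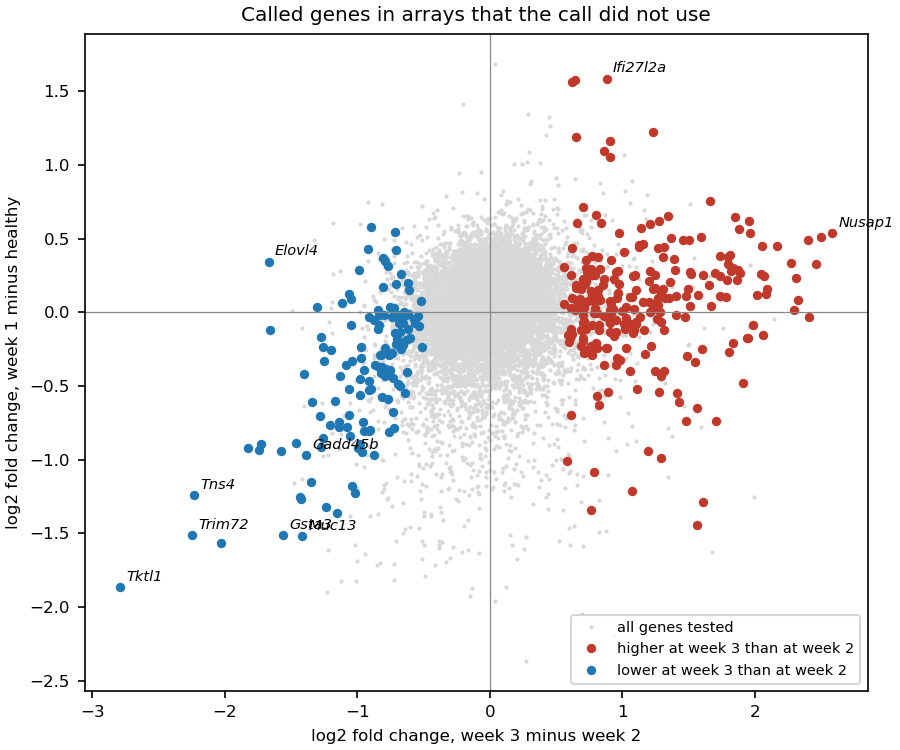
Each point is a gene, with its log2 fold change of week 3 minus week 2 on the x axis and of week 1 minus healthy on the y axis, which come from different arrays. Of the 136 genes called lower (blue), 113 lie below 0 on the y axis, and of the 246 called higher (red), 92 do.

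By the probe sets used, Elovl4 and Slc5a12 were low at week 3 alone. Elovl4, which elongates very long chain fatty acids, had 6.74, 6.98 and 6.72 at week 3 against 8.54, 8.57 and 8.33 at week 2 (-1.67, SE 0.12, adjusted p = 0.0107). It averaged 8.64 at week 1 and had 8.95, 8.47 and 7.48 in healthy lungs. By limma its week 3 arrays did not pass the test against the healthy ones (adjusted p = 0.0597). Between weeks 3 and 2, a dimmer Elovl4 probe set changed by -0.41 (adjusted p = 0.303) and a dimmer Slc5a12 one by -1.37 (adjusted p = 0.0756). Slc5a12, a lactate transporter, had 8.68, 7.98 and 7.86 at week 3 and 9.79, 10.04 and 9.68 at week 2 (-1.66, SE 0.23), and its healthy and week 1 arrays lay between 9.41 and 9.84. Adcy8, an adenylyl cyclase, Ly6g6c and 1700020D05Rik fell by 1.43, 1.46 and 1.58 on the log2 scale, and their log2 fold changes of week 1 against healthy lungs were -1.25 to -0.88.

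Immediate-early, dissociation and heat shock genes were lower at week 3. Of 28 measured, 4 fell and none rose, 14 were lower at an unadjusted p below 0.05, and the median was -0.26. Hspa1a, an inducible heat shock chaperone, had 7.54, 7.65 and 7.35 at week 3 against 8.57, 8.67 and 8.49 at week 2 (-1.06, SE 0.12), and its near-identical copy Hspa1b fell by 0.98 on the log2 scale, so that the probes may not separate the pair. The nuclear receptor Nr4a2 and Fosb, a subunit of AP-1, fell by 0.95 and 0.80 on the log2 scale. The list's median against healthy lungs was -0.15 at week 1, -0.02 at week 2 and -0.33 at week 3. Like the signal of Tktl1, it was lower at weeks 1 and 3 than at week 2. The transcripts of this list are also known to respond to tissue dissociation. The part of cell handling in their values, and in the falls described above, was not tested. Alveolar type 1 cell markers were lower as well: of 14, Gprc5a fell by 0.98 on the log2 scale, 9 were lower at an unadjusted p below 0.05, and the sums averaged 14.88 at week 3 and 15.22 at week 2 with no overlap.

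Several programs gave few or no calls. No gene passed among 25 of shear stress, vasomotor and anticoagulant function, 28 of lipid uptake, storage and lipolysis, 20 of cholesterol synthesis, 29 of retinoid and xenobiotic metabolism, 18 of the circadian clock and 29 of oxidative phosphorylation. Their medians ran from -0.23 for retinoid and xenobiotic metabolism, where 10 were lower at an unadjusted p below 0.05, to 0.06 for oxidative phosphorylation. In the hypoxia and glycolysis list Adm, Hif1a and Tpi1 rose, and Hif1a had 12.33, 12.34 and 12.29 at week 3 against 11.52, 11.75 and 11.59 at week 2 (0.70, SE 0.10). Adm, which encodes adrenomedullin, averaged 10.08 at week 3 and 9.31 at week 2, and 10.21 in healthy lungs. Of 32 genes of TGF-β, BMP and activin signaling Inhba rose and Id2, a target of BMP signaling, fell by 0.66 on the log2 scale. Of 30 genes of the unfolded protein and amino acid response, the amino acid transporter Slc7a5 rose by 0.96.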

How the data were processed

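Lung ECs of 12 samples, 3 biological replicates per group by the labels, were measured on the Affymetrix Mouse Genome array. The deposited values are log2 signals, 1 per probe set and array, which the authors made by robust multiarray average (background correction, quantile normalization and summary) in Chipster, and quantile normalization fixes the array medians, here 8.13. No filter was applied beyond setting aside 64 control probe sets of 45101. Each gene is represented by the single-symbol probe set of highest mean over the 12 arrays, since 932 probe sets carry several symbols and 9160 none. Week 3 was compared with week 2 on 6 arrays in limma 3.58.1 (R 4.3.3, linear model and empirical Bayes, two-sided) with Benjamini–Hochberg adjustment, as the 2-group empirical Bayes test of the methods, and the step from week 2 to week 3 minus the step from week 1 to week 2 on 9 arrays. Only 3 arrays per group limit the precision. Figures, sums and motif searches used Python 3.11.15 and pandas 2.3.3.

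The comparison and the 32 program and 19 cell type lists, written from general knowledge, were chosen with earlier results of these data known, and some members are not reported here. Named genes are the 15 largest rises and 15 largest falls among called genes without overlap, up to 4 called members of each list or the lowest p, and the genes of the sort. Added to them were Vegfa, Vwf and the secreted factors Inhbb, Lama1, Scgb3a1, Tnfrsf11b and Tnc that the study follows. Any other gene was named after its values were seen. List counts are descriptions without a set test. Alternatives were a filter on dim probe sets, blocking on replicate number, dropping each array, renewed quantile normalization, weights for arrays, 1 fit of all 12 arrays, a robust and trended variance, averaging of a gene's probe sets, and omission of _x_at and _s_at probe sets.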

Additional observations from a re-analysis of the deposited data

Results flagged for a closer look

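The step from week 2 to week 3 and the step from week 1 to week 2 differed for 53 genes by a test of the difference itself (limma, adjusted p below 0.05), 20 with a positive and 33 with a negative value. The largest negative value was that of Tktl1 (-4.56) and the largest positive one that of Cenpf (3.32). Without week 2 replicate 1 no gene passed (1520 at an unadjusted p below 0.05), and without another array of the 9 between 1 and 34 did.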

How the results depend on the processing

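Of the 382 genes called between weeks 3 and 2, every one that was measured kept its direction under each alternative. Most alternatives read the same probe sets, whose arrays did not overlap between the weeks, so they could hardly change it. The mean of a gene's probe sets and the omission of _x_at and _s_at probe sets drew on other probe sets. The count was 605 with all 12 arrays in 1 fit (338 of the 382 among them), 636 with dim probe sets left out (335 shared), 776 with a trended and robust variance (372 shared) and 713 with the mean of a gene's probe sets (315 shared). It was 382 after renewed quantile normalization, 394 with array weights and 360 without _x_at and _s_at probe sets. Leaving out 1 array gave 0 to 137 genes, with 2576 and 2601 genes at an unadjusted p below 0.05 where the count was 0. The count of genes whose steps differed was 85 with dim probe sets left out, 131 with the trended and robust variance, 84 with array weights and 124 with the mean of probe sets, and leaving out 1 array gave 0 to 34. With the replicate number as a block, neither limma test called a gene: 0 of 382 and 0 of 53, with lowest adjusted p-values of 0.0807 and 0.0718 and 2838 and 1828 genes at an unadjusted p below 0.05. The replicate numbers did not pair the arrays of weeks 3 and 2, whose deviations from the group means correlated at 0.01, 0.02 and -0.02 between equal numbers. The cause of the other changes was not tested. Of the values of named genes under these alternatives, 1230 stayed on their side of the threshold, 40 crossed to pass it, 648 no longer passed and 6 changed sign, all of genes not called. These were Lyz1 (-0.094 without _x_at and _s_at probe sets), Tfrc (-0.15 with the mean of probe sets), Vwf (-0.0014 with array weights) and, with 1 array left out, Vwf (-0.048 to 0.045) and Pdgfrb (-0.067 to 0.42).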

Other observations

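Of the 246 genes called higher, 134 lay in none of the lists, and those given here were chosen after their values were seen. Akr1b8, an aldo-keto reductase, had 9.99, 10.01 and 10.54 at week 3 and 7.58, 8.68 and 8.05 at week 2 (2.07 as log2 fold change, SE 0.29). Ildr2 had 11.73, 11.68 and 11.82 at week 3 and 9.55, 10.02 and 10.05 at week 2 (1.87, SE 0.15), with 8.94, 9.30 and 9.15 in healthy lungs. Ntrk2, the BDNF receptor TrkB, had 11.96, 11.80 and 12.06 at week 3 and 10.31, 10.83 and 10.17 at week 2 (1.51, SE 0.18). Olr1, a scavenger receptor for oxidized LDL, rose by 1.91 on the log2 scale, and the prion protein gene Prnp by 1.49. AA467197, a transcript with a clone name, had 9.21, 9.04 and 9.37 at week 3 and 6.59, 7.34 and 6.79 at week 2 (2.30, SE 0.20). Among the falls outside the lists, Stc1, which encodes the hormone stanniocalcin, had 8.94, 8.85 and 8.94 at week 3 and 10.30, 10.57 and 9.76 at week 2 (-1.30, SE 0.20).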
